A study of Rattus norvegicus with 9 samples.

Results

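The transcripts of the sirtuins Sirt1 to Sirt7 and of the NAD salvage enzymes Nampt, Nmnat1 and Nmnat3 were examined in the tibialis anterior muscle (TIB) of fed and fasted rats. A gene was taken from the array annotation where a probe set carries its symbol alone, and 9 of the 10 genes had such a probe set, among 14506 genes measured in this way. Each of the 9 has 1 probe set, and Sirt1 was not analysed here. TIB is a limb muscle made largely of fast fibres. All 9 rats were male Sprague Dawley animals, 10 weeks old when bought, and each gave RNA for 1 Affymetrix Rat Gene 1.0 ST array. There were 3 fed rats (Fed), 3 rats fasted until phase 2 (P2), when lipids are the main fuel and body protein is spared, and 3 rats fasted longer, until phase 3 (P3), when body protein is increasingly used. Levels are log2 intensities after RMA, in which a difference of 1 is a doubling, and levels of different probe sets cannot be compared with each other.

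Sirtuins remove acetyl and other acyl groups from lysines of proteins and consume NAD+ in doing so, with nicotinamide released. In mammals, Nampt turns nicotinamide into nicotinamide mononucleotide, which Nmnat1 in the nucleus and Nmnat3, generally assigned to mitochondria although its presence there is debated for some tissues, turn back into NAD+. Sirt3, Sirt4 and Sirt5 act in mitochondria, Sirt6 and Sirt7 in the nucleus and Sirt2 mainly in the cytosol. In muscle these enzymes are known as links between the nutritional state and oxidative metabolism.

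The mitochondrial sirtuins Sirt3, Sirt4 and Sirt5 and Nmnat3, which is counted with them below, were lower in P3 than in Fed, and the nuclear sirtuins Sirt6 and Sirt7 were higher. Sirt2, Nampt and Nmnat1 did not pass the test. Nmnat3 had the largest difference of the 9, with a log2 fold change of -1.002 ± 0.11 (SE) in P3 versus Fed, and it alone was also lower in P2 than in Fed. The test was limma over all 29215 probe sets with Benjamini-Hochberg adjustment, and a gene is called where its adjusted p is under 0.05. For P3 versus Fed this called 6 of the 9 members, against 29.2% of all probe sets. That share was 37.6% with the fit restricted to probe sets with 1 symbol and 44.2% with a mean log2 of at least 5. All 9 members are in both of these sets. By direction limma called 4 of 9 lower, against 13.4% of all probe sets and 2479 of the 14506 genes. It called 2 of 9 higher, against 15.8% of all probe sets and 2647 of the 14506 genes. After one more quantile normalization of the arrays the split was 5 lower (with Nmnat1) and 1 higher (without Sirt6). Irrespective of the test, the P3 and Fed rats did not overlap in 8 of the 9 members, against 42.4% of all probe sets, with 3 higher (22.3%) and 5 lower (20.1%). Over the 9 members the median log2 fold change was -0.31 in P3 versus Fed, and over all probe sets it was 0.00.

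**Figure D1:**
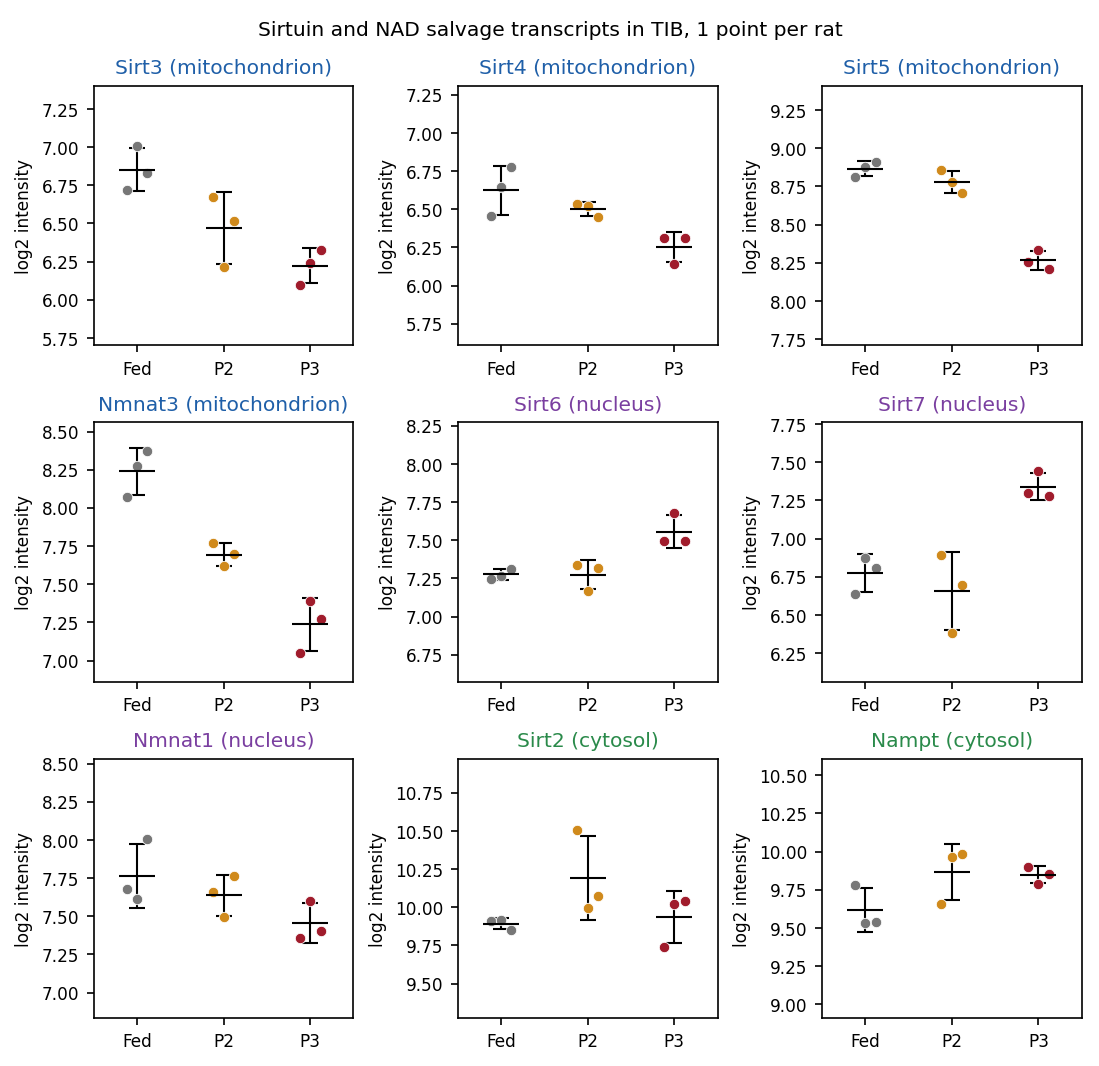
Log2 intensity of the 9 measured genes, with 1 point per rat, 3 rats in each of Fed, P2 and P3, and bars for the mean ± SD. The vertical axis spans the same range of log2 units in every panel but starts at a different level. In the 4 mitochondrial genes all P3 points lie below all Fed points, and in Sirt6 and Sirt7 above them.

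Promoter stretches of Nmnat3 and Sirt5 are shown because both genes were lower in P3 than in P2 as well as in Fed. They are RefSeq sequences of the GRCr8 build, where promoters were found under the symbols of 7 measured members (Sirt2, Sirt3, Sirt4, Sirt5, Sirt7, Nmnat1 and Nmnat3). Each is read 5′ to 3′ on the strand of its gene and ends upstream of the annotated start site, from which positions are counted. Capitals mark TCAAGGTCA, an element bound by oestrogen-related receptors, in Nmnat3 (plus strand, chr8:107771513-107771612), and in Sirt5 (minus strand, chr17:21543197-21543266) its core AGGTCA, the half-site of many nuclear receptors, once in reverse complement.
Nmnat3: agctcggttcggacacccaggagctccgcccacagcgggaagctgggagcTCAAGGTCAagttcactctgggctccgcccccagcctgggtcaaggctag
Sirt5: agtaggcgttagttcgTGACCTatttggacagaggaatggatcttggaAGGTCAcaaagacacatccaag

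The 9-letter element lies at positions -50 to -42 of Nmnat3. On either strand it occurs in 113 of 27457 promoters of the same length (0.412%) and in none of the other 6 members searched. AGGTCA, which the longer element contains, lies at -194 to -189 and at -162 to -157 of Sirt5. In Nmnat3 it also lies at 24 to 29, outside the stretch shown. It occurs in 15.7% of all promoters and in 2 of the 7 members searched, Nmnat3 and Sirt5. The members searched hold no exact match to an NRF1 site (GCGCA and GCGC, 1 base apart, in 4.71% of all promoters), an E-box (CACGTG, 6.65%), a FOXO site (GTAAACA, 3.76%), a glucocorticoid response element (GNACA and TGTNC, 3 bases apart, 0.422%) or a cAMP response element (TGACGTCA, 1.91%). These motifs were chosen after the member promoters had been seen, a match is a run of letters and not a shown binding site, and its part in the results was not tested.

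Among the NAD salvage enzymes, Nmnat3 changed most. It had log2 intensities of 8.07, 8.27 and 8.37 in Fed, 7.77, 7.62 and 7.70 in P2, and 7.05, 7.39 and 7.27 in P3. The 3 groups lay in separate ranges, with Fed highest and P3 lowest. Nmnat3 averaged 7.69 ± 0.07 in P2 and 8.24 ± 0.16 in Fed (SD, n = 3 each), a log2 fold change of -0.54 ± 0.11 (limma adjusted p = 0.0168). In P3 it averaged 7.24 ± 0.18, with an adjusted p of 0.000136 against Fed by limma. P3 was also lower than P2, by a log2 fold change of -0.46 ± 0.11 (limma adjusted p = 0.0214). The P2 mean thus lay 0.544 of the way between the Fed and P3 means. It was the only member called in P2 versus Fed, where limma called 9.28% of all probe sets (5.13% higher and 4.15% lower). The P2 call was lost without Fed 2, Fed 3, P2 2 or P2 3, where limma's adjusted p ran between 0.0558 and 0.0652, and the call of P3 versus P2 was lost without P2 1, P2 3, P3 1 or P3 3.

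Nmnat1, the nuclear enzyme of the same step, had log2 intensities of 7.68, 7.62 and 8.005 in Fed, 7.66, 7.495 and 7.76 in P2, and 7.36, 7.60 and 7.41 in P3. All P3 rats were below all Fed rats, but the lowest Fed and the highest P3 rat were close. The log2 fold change in P3 versus Fed was -0.31, with a 95% interval of -0.59 to -0.03 and a limma adjusted p of 0.0935. After one more quantile normalization of the arrays it was -0.38 and passed the test (limma adjusted p = 0.0404). Its value in P2 versus Fed was -0.13, with an interval of -0.40 to 0.15.

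Nampt, which catalyses the rate-limiting step of salvage in mammals, had log2 intensities of 9.78, 9.53 and 9.54 in Fed, 9.66, 9.96 and 9.99 in P2, and 9.90, 9.79 and 9.86 in P3. Fed 1 was the highest fed rat and lay above P2 1 and just below P3 2. For Nampt the log2 fold change was 0.25 in P2 versus Fed, with a 95% interval of 0.01 to 0.50 (limma adjusted p = 0.214), and 0.23 in P3 versus Fed, with an interval of -0.01 to 0.48 (limma adjusted p = 0.154). Neither passed the test over all probe sets. Without P2 1, which had the lowest Nampt of its group, the P2 value was 0.36 and was called (limma adjusted p = 0.0472), as it was with array weights. P3 and P2 differed by -0.02, with an interval of -0.27 to 0.22.

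Of the mitochondrial sirtuins, Sirt5, which removes malonyl, succinyl and glutaryl groups, had the smallest SD in Fed and P3, whereas in P2 that of Sirt4 was smaller. Its log2 intensities were 8.81, 8.88 and 8.91 in Fed, 8.85, 8.78 and 8.71 in P2, and 8.26, 8.33 and 8.21 in P3. Fed and P2 overlapped, and all P3 rats lay below both. In P3 the level fell by 34.0% relative to Fed (log2 fold change -0.60 ± 0.07, limma adjusted p = 0.000188). Relative to P2 it fell by 30.0% (log2 fold change -0.51 ± 0.07, limma adjusted p = 0.00107). The value in P2 versus Fed was -0.09, with a 95% interval of -0.24 to 0.07, so the P2 mean lay 0.142 of the way towards P3. Both P3 calls were kept with each of the 9 arrays left out in turn.

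Sirt3, the main deacetylase of mitochondrial proteins, had log2 intensities of 6.72, 7.004 and 6.83 in Fed, 6.68, 6.21 and 6.52 in P2, and 6.10, 6.24 and 6.33 in P3. All fasted rats lay below all Fed rats, and P2 2 lay among the P3 rats. Sirt3 had a log2 fold change of -0.63 ± 0.13 in P3 versus Fed (limma adjusted p = 0.0051). Its value for P2 versus Fed was -0.38, with a 95% interval of -0.67 to -0.09, and did not pass over all probe sets (limma adjusted p = 0.111). It passed with array weights and without P2 1, where limma's adjusted p was 0.0453. P3 and P2 differed by -0.25, with an interval of -0.54 to 0.04. Among the 6 genes called in P3, Sirt3 had the P2 mean nearest to that of P3, 0.608 of the way from Fed.

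Sirt4, known as an ADP-ribosyltransferase and lipoamidase, had the smallest decrease of the mitochondrial members in P3. Its log2 intensities were 6.45, 6.65 and 6.77 in Fed, 6.54, 6.52 and 6.45 in P2, and 6.31, 6.14 and 6.31 in P3. All P3 rats lay below all other rats, whereas Fed and P2 overlapped. The log2 fold change in P3 versus Fed was -0.37 ± 0.09 (limma adjusted p = 0.0153). This call was lost without Fed 2, Fed 3 or P3 2, with limma's adjusted p between 0.0508 and 0.0551. In P3 versus P2 the value for Sirt4 was -0.25, with an interval of -0.46 to -0.04 (limma adjusted p = 0.124), and in P2 versus Fed it was -0.12, with an interval of -0.33 to 0.09.

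The nuclear sirtuins were called higher in P3 relative to both Fed and P2, and neither was called in P2 versus Fed. Sirt7, a deacetylase of the nucleolus linked to ribosomal RNA synthesis, had log2 intensities of 6.64, 6.88 and 6.81 in Fed, 6.89, 6.38 and 6.70 in P2, and 7.30, 7.44 and 7.28 in P3. All P3 rats lay above the others, and the P2 rats were spread on both sides of the Fed rats. In P3 Sirt7 rose by 48.1% relative to Fed (log2 fold change 0.57 ± 0.13, limma adjusted p = 0.00884) and by 60.5% relative to P2 (log2 fold change 0.68 ± 0.13, limma adjusted p = 0.00615). P2 differed from Fed by -0.12, with a 95% interval of -0.41 to 0.17. Both P3 calls of Sirt7 were kept with each array left out in turn.

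Sirt6, a chromatin deacetylase known for the control of glycolytic genes and DNA repair, had log2 intensities of 7.25, 7.27 and 7.31 in Fed, 7.34, 7.17 and 7.32 in P2, and 7.496, 7.68 and 7.49 in P3. The P3 rats again lay above all others. Sirt6 had a log2 fold change of 0.28 ± 0.08 in P3 versus Fed (limma adjusted p = 0.0268) and one of 0.28 ± 0.08 in P3 versus P2 (limma adjusted p = 0.0415). P2 differed from Fed by -0.00, with a 95% interval of -0.18 to 0.18. Both calls were close to the threshold. The first was lost without Fed 1, Fed 2, Fed 3 or P3 2 (highest limma adjusted p = 0.0823), and the second, of the 9 arrays left out in turn, was kept only without P2 1 (highest limma adjusted p = 0.125).

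Sirt2, a deacetylase of tubulin and of metabolic enzymes, had log2 intensities of 9.91, 9.92 and 9.85 in Fed, 10.50, 9.99 and 10.07 in P2, and 9.74, 10.02 and 10.04 in P3. P2 1 was the highest rat, and P3 rats lay on both sides of the Fed rats. Sirt2 had a log2 fold change of 0.30 in P2 versus Fed, with a 95% interval of -0.02 to 0.61 (limma adjusted p = 0.25), and 0.04 in P3 versus Fed, with an interval of -0.27 to 0.36. Without P2 1 the P2 value was 0.14.

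**Figure D2:**
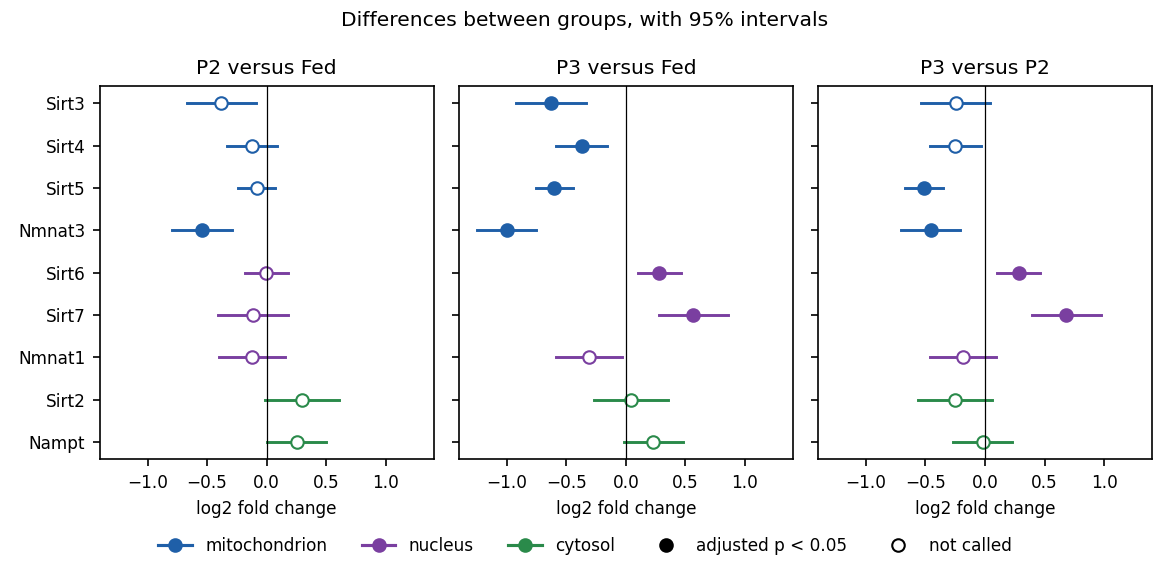
Log2 fold change (horizontal axis) of each measured gene in 3 comparisons, with 95% intervals from limma, coloured by compartment and filled where the adjusted p is under 0.05. In P3 versus Fed the 4 mitochondrial genes lie between -1.002 and -0.37, and in P2 versus Fed only Nmnat3 is filled.

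Limma called none of the 6 sirtuins in P2 versus Fed. At an unadjusted p under 0.05 it was 1 of the 6, Sirt3, and the analysis of variance with Tukey's test named in the methods called none. The P2 and Fed rats did not overlap in 3 of the 9 members, against 24.2% of all probe sets, with Sirt2 higher (13.3%) and Sirt3 and Nmnat3 lower (10.9%). P3 versus P2 had calls for 4 of the 9 members, against 16.0% of all probe sets, with Sirt5 and Nmnat3 lower (7.52%) and Sirt6 and Sirt7 higher (8.5%). These 4 and Sirt4, which was lower without a call, had P3 and P2 rats that did not overlap, 5 of 9 against 27.4% (13.8% higher and 13.6% lower). The fed rats are shared by P2 versus Fed and P3 versus Fed, so that these comparisons are not independent of each other. Median log2 fold changes over the 4 mitochondrial members were -0.61 for P3 versus Fed and -0.25 for P2 versus Fed, and over the 3 mitochondrial sirtuins without Nmnat3 they were -0.60 and -0.12. Of the 14506 genes, 5.18% had a lower log2 fold change than Nmnat3 in P3 versus Fed, 10.3% than Sirt3 and 10.8% than Sirt5. For Sirt7, the share of genes below it in P3 versus Fed was 87.2%.

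**Figure D3:**
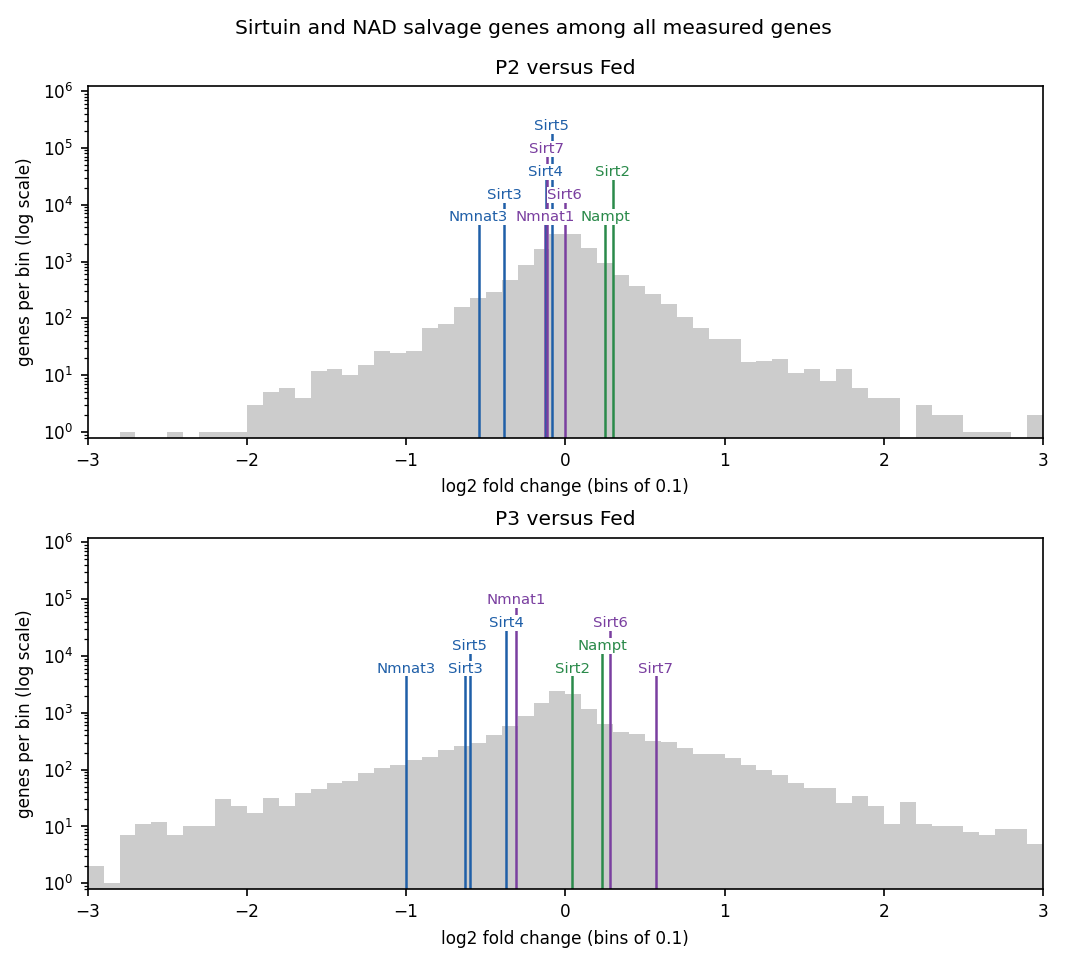
Histogram of the log2 fold changes of 14506 genes (bins of 0.1, log scale, values beyond the horizontal axis not drawn), with a line for each measured sirtuin and NAD salvage gene coloured by compartment as in the plot of fold changes. The lines reach different heights only to separate the names. In P3 versus Fed the genes are spread from -1.002 (Nmnat3) to 0.57 (Sirt7), with 5.18% of all genes below Nmnat3 and 87.2% below Sirt7.

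The other enzymes of NAD synthesis were mostly dim on these arrays. The list holds Nmnat2, the NAD kinases and genes of the pathways from tryptophan, nicotinic acid and nicotinamide riboside. Of its 16 genes, 12 were measured. Ido2, Afmid and the nicotinamide riboside kinases Nmrk1 and Nmrk2 had no probe set with their symbol alone, so the riboside step was not covered. Limma called none of the 12 in P2 versus Fed, but 1 without P2 1. At an unadjusted p under 0.05 it was 3 (Nadk, Nadk2 and Tdo2), and by the methods' test none. The only call in P3 versus Fed was 1 of the 12, or 2 without P2 2, against 29.2% of all probe sets. However, 7 of the 12 (Nmnat2, Tdo2, Ido1, Kmo, Kynu, Haao and Acmsd) had a mean log2 intensity below 5, where a low count says little about the pathway. The call was Tdo2, the dioxygenase that opens the tryptophan ring, whose log2 fold change of 0.53 ± 0.08 was measured at levels of 3.92 ± 0.13 in P3 and 3.38 ± 0.02 in Fed. Nadk2, the mitochondrial NAD kinase, had a value of 0.36 with a 95% interval of 0.01 to 0.71 and was not called. Qprt, which makes the nucleotide of the pathway from tryptophan, had a value of -0.18 with an interval of -0.39 to 0.04. Over the 12 genes the median was -0.06.

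Among other users of NAD+, the list of PARPs, tankyrases, NAD hydrolases, nicotinamide-disposing enzymes and carriers had 14 of 15 genes measured. The hydrolase Cd38 had no probe set with its symbol alone. Bst1, Sarm1 and Slc12a8 had a mean log2 intensity below 5, where a missing call says little. Limma called 3 higher (15.8% of all probe sets) and 3 lower (13.4%) in P3 versus Fed, and 5 of the 6 belong to the PARP family. In P3, Parp1, the main poly(ADP-ribose) polymerase of the DNA damage response, fell by 42.8% (limma adjusted p = 0.000302), to 8.16 ± 0.21 against 8.96 ± 0.04 in Fed (SD, n = 3 each). Parp3 had a log2 fold change of -0.75 ± 0.10 and Parp4 one of 0.51 ± 0.13. The tankyrases, which add ADP-ribose chains to axin and other partners, were called in opposite directions, with log2 fold changes in P3 versus Fed of 0.87 ± 0.13 for Tnks and -0.81 ± 0.11 for Tnks2. For Tnks2 the P3 rats lay between 10.37 and 10.48, against 11.17 to 11.29 in the Fed rats. The largest difference of this list was in Aox1, an aldehyde oxidase that oxidizes methylated nicotinamide among many substrates. Its log2 intensities were 5.31, 6.17 and 5.86 in Fed, 7.42, 7.92 and 7.90 in P2, and 9.58, 8.34 and 8.83 in P3, so that the groups did not overlap. It was the 1 gene of the 14 called in P2 versus Fed (2 without P2 1, and a further gene lower without P3 1 or P3 2), where the log2 fold change was 1.97 ± 0.32, and in P3 versus Fed it was 3.13 ± 0.32. Nnmt, which methylates nicotinamide, had a value of 0.07 in P3 versus Fed, with a 95% interval of -0.11 to 0.24.

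Sirt1 itself was not analysed here, but 11 of 14 genes listed as its regulators and substrates were measured. Of the 11, 5 were called higher in P2 versus Fed (5.13% of all probe sets) and none lower (4.15% of all probe sets, 4 lower at an unadjusted p under 0.05, and none by the methods' test, but 1 by limma without P2 2 or P3 2). The counts in P3 versus Fed were 4 higher (15.8% of all probe sets) and 3 lower (13.4%), with little net shift of the list, whose median log2 fold change was 0.10. The transcription factors Foxo1 and Foxo3 rose most, by 2.83 ± 0.15 and 2.40 ± 0.12 on the log2 scale in P3 versus Fed. Foxo1 had log2 intensities of 7.73, 8.02 and 7.92 in Fed, 9.32, 9.93 and 9.61 in P2, and 10.72, 10.66 and 10.80 in P3. Crtc2, a coactivator of CREB, had a log2 fold change of 1.46 ± 0.13, and Rela, a subunit of NF-kappa B, one of 0.95 ± 0.10.

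The lower genes of that list include Ppargc1a (PGC-1alpha), a coactivator of mitochondrial biogenesis that partners with oestrogen-related receptors. Its log2 intensities were 8.74, 8.85 and 8.68 in Fed, 8.26, 8.41 and 8.41 in P2, and 6.70, 7.19 and 6.63 in P3. All P2 rats lay below all Fed rats, and the P3 rats lay further down. Ppargc1a had a log2 fold change of -1.91 ± 0.14 in P3 versus Fed (limma adjusted p = 1.15e-05), whereas P2 versus Fed, at -0.39 ± 0.14, was not called (limma adjusted p = 0.13). Ppara, the fatty acid-sensing nuclear receptor, had a value of -0.64 ± 0.15 in P3 versus Fed. Hic1, known as a repressor of Sirt1, was called lower at -0.36 ± 0.12 (limma adjusted p = 0.0457), although its P3 and Fed rats overlapped. With the stricter adjusted p under 0.01, 1 of the 3 lower calls in P3 was left. After quantile normalization once more 2 were left, as with each array left out in turn except P2 1 and P3 2, without which all 3 were kept.

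Of 14 genes listed for proteins that mitochondrial sirtuins are known to modify, 12 were measured. Limma called 6 lower (13.4% of all probe sets) and 1 higher (15.8%) in P3 versus Fed, with a median log2 fold change of -0.35, against 0.00 over all probe sets. Ndufa9, a subunit of respiratory complex I, fell by 1.14 ± 0.13 on the log2 scale, and Pdha1, a subunit of pyruvate dehydrogenase, by 1.05 ± 0.12. Sdha, the flavoprotein of complex II, had a value of -0.88 ± 0.10, and Sod2, the superoxide dismutase of the matrix, one of -0.85 ± 0.07. The lower genes also include Ppif, a regulator of the permeability transition pore, at -0.65 ± 0.10, and Opa1, which fuses inner membranes, at -0.48 ± 0.13 (or -0.47 ± 0.13 in P2 versus Fed, where it was not called). Acadl, a dehydrogenase of long-chain fatty acids, was higher in P3 than in Fed by 0.26 ± 0.07 on the log2 scale. That call was lost without Fed 1, Fed 3 or any 1 of the P3 rats, and a further gene was called higher without Fed 2. The calls in P2 versus Fed were 5 lower (4.15% of all probe sets) and 2 higher (5.13%) of the 12, and the 5 became 2 without Fed 1, Fed 2 or P2 3 and 3 without Fed 3.

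The NAD-independent deacetylases were examined as the other family with this activity, and 10 of 11 were measured. Of these, 1 was higher and 2 lower in P3 versus Fed, a total near the 29.2% of all probe sets, and the median log2 fold change was -0.01. Hdac4, a class IIa deacetylase active in denervated muscle, had a value of 0.77 ± 0.09 for P2 against Fed and 0.74 ± 0.09 for P3 against Fed. Hdac10 had a value of -0.54 ± 0.09 and Hdac2 one of -0.41 ± 0.10 in P3 versus Fed. Hdac4 was the only call in P2 versus Fed, and a further gene was called higher without Fed 2. Without Fed 2 or P2 1, 2 genes were called higher in P3 versus Fed.

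**Figure D4:**
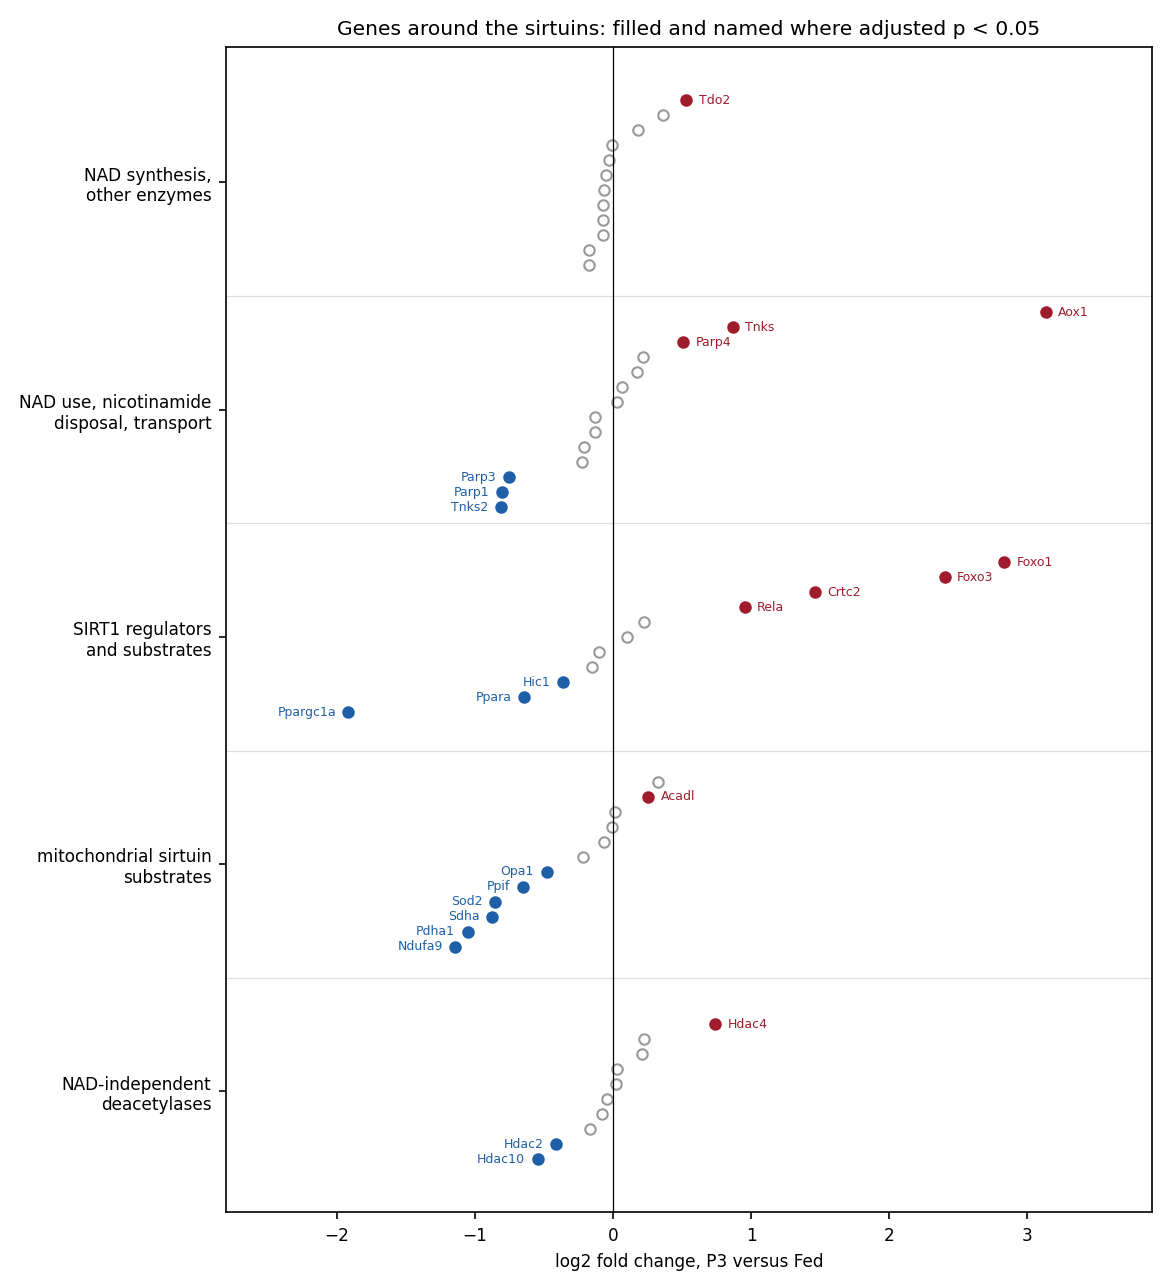
Log2 fold change in P3 versus Fed (horizontal axis) of the measured genes of 5 lists, 1 point per gene ordered by value within its list, filled and named where limma's adjusted p is under 0.05 (red higher, blue lower). Only Tdo2 is filled among the NAD synthesis genes, and 6 of 12 mitochondrial sirtuin substrates are filled on the lower side.

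Patterns over the 9 arrays were compared for the 3 members with the largest moderated F statistic, among 8179 genes with a mean log2 intensity of at least 6. The genes closest to Sirt5 were Tpgs1 (Pearson's r = 0.992), Ptpa (0.992) and Ankrd9 (0.991). Those closest to Nmnat3 were Trak1 (0.989), Sh3glb2 (0.989) and Ndufa7 (0.988), and those closest to Sirt7 were Mb21d2 (0.981), Pak1ip1 (0.963) and Gga3 (0.960). These values describe 9 arrays that share the 3 group means and are given without a test.

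The median log2 intensity of an array was 5.801 to 5.899, and Pearson's r over all probe sets (a description, since probe sets are not replicates) was 0.987 to 0.994 within groups and 0.957 to 0.987 between groups. P2 1 had the lowest weight when arrays were weighted by their agreement with their group (0.381). For the marker counts that follow, limma called 15.8% of all probe sets higher and 13.4% lower in P3 versus Fed. It called 5.13% higher in P2 versus Fed and 7.52% lower in P3 versus P2. The 9 measured markers of fast and other fibres were at log2 intensities of 11.28 to 13.98 in all rats, and 2 of them (Tnni2 and Pvalb) were called lower in P3 than in Fed. The summed linear intensity of these 9 was 97990 to 99210 in Fed, 91440 to 93600 in P2 and 81070 to 83770 in P3. Of the markers of fibro-adipogenic cells, 6 of 8 were lower in P3. The summed linear intensity of the 8 was 15460 to 17610 in Fed, 6325 to 12060 in P2 and 4256 to 6679 in P3. The lower genes include the collagens Col1a1 and Col1a2, at mean log2 intensities of 12.46 and 12.03 in Fed and 8.28 and 8.36 in P3. Pdgfra (-0.39) and Dcn (0.39) were not called in P3 versus Fed. Of the smooth muscle markers 3 of 4 were lower in P3. Adipocyte markers were higher in P2 than in Fed, 3 of 7 (1 without Fed 2), with sums of 1055 to 1131 in Fed, 1761 to 1969 in P2 and 758 to 981 in P3. In P3 they were lower than in P2, 3 of 7 (5 without P2 2 and 1 without P3 1), and Fabp4 was lower than in Fed, except without Fed 1 or Fed 3. Of the satellite cell markers 1 of 3, Cdh15, was called lower in P3 than in Fed (0 without Fed 2 or P3 3 and 2 without P2 1), and all 3 were lower at an unadjusted p under 0.05. Pecam1 was called higher in P3 than in Fed among the 7 endothelial markers, by 0.91 ± 0.17 on the log2 scale, with 1 marker called lower without P3 1. The median of the 7 was -0.11. Tie1 (-0.44), Kdr (-0.43), Cdh5 (-0.14) and Emcn (-0.11) were lower without a call, and Tek (0.42) and Cldn5 (0.15) higher without a call. Macrophage markers had 1 of 8 called in P3 (Cd163, higher), and lymphocyte markers 0 of 6 by limma (1 at an unadjusted p under 0.05, and none by the methods' test). Cd3e and Cd3g of the lymphocyte list and Lep of the adipocyte list had a mean log2 intensity below 5, where a missing call says little. The part of all these cell types in the sirtuin results was not tested. In whole muscle, fewer cells of a type and less RNA per cell cannot be told apart.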

How the data were processed

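Total RNA of 9 TIB samples was hybridized to Affymetrix Rat Gene 1.0 ST arrays, 1 per rat. The deposited values are log2 intensities, which the authors obtained by RMA (Affymetrix Expression Console 1.1) with background correction, quantile normalization and a summary over the probes of each probe set. The RMA normalization forces arrays to a like distribution, so that changes are relative to the other probe sets. No column was left out.

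Groups were taken from the labels. Of 29215 probe sets, 15310 have 1 symbol, 323 several and 13582 none, and a gene is represented by its probe set of highest mean. The 3 group means were estimated from the 9 arrays by limma 3.58.1 in R 4.3.3 (lmFit and eBayes, 2.87 prior degrees of freedom), with Benjamini-Hochberg adjustment over all probe sets within each comparison. Intervals are 95% intervals of the moderated fit. The number of arrays, 3 per group, limits the precision. The fit was tested on simulated data. Figures were drawn with matplotlib 3.10.9 in Python 3.11.15.

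The members, lists, compartments and motifs were chosen with earlier results of these data known. All measured members are named, up to 6 called genes per list with the largest difference in P3 versus Fed, and for 3 members the 3 most alike genes. Others named by value were chosen after their values were seen.

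Alternatives were quantile normalization once more, array medians subtracted, a mean log2 of at least 5, restriction to probe sets with 1 symbol, moderation that is robust and follows an intensity trend, array weights, fits of only the groups compared, a block for the replicate number, a minimum change of 1.5-fold or a threshold of 0.01 for the adjusted p, averaging over a gene's probe sets, leaving out each array, and the methods' test. The last is an analysis of variance with Tukey's test, both at p under 0.001. In its other version only the p of the analysis of variance was Benjamini-Hochberg adjusted. There, this adjusted p and the p of Tukey's test both had to be under 0.05. Promoters of GRCr8 were searched on both strands. The other muscles and the protein assays of the study are not analysed here.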

Additional observations from a re-analysis of the deposited data

Results flagged for a closer look

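For 4 genes the difference from Fed was itself different between P3 and P2, by limma's test of P3 versus P2, in which the shared fed rats cancel. The P3 difference minus the P2 difference was 0.68 on the log2 scale for Sirt7 (limma adjusted p = 0.00615) and 0.28 for Sirt6 (limma adjusted p = 0.0415), both higher in all 3 P3 rats than in all 3 P2 rats. It was -0.51 for Sirt5 (limma adjusted p = 0.00107) and -0.46 for Nmnat3 (limma adjusted p = 0.0214), both lower in all 3 P3 rats than in all 3 P2 rats. Groups of 3 rats were not searched for single outlying samples.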

How the results depend on the processing

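Of 540 alternative values of single members, 485 kept direction and side of the threshold, 39 lost the call, 5 gained one and 11 changed sign. Every change of sign concerned a value that was not called: Sirt6 in P2 versus Fed was 0.0109 with array weights (-0.0345 to 0.0511 with arrays left out), Sirt7 in P2 versus Fed -0.2324 to 0.0208 with arrays left out, Sirt2 in P3 versus Fed -0.0439 after quantile normalization once more (-0.0097 to 0.1405), and Nampt in P3 versus P2 0.0182 after subtraction of array medians (-0.1259 to 0.0388). In P2 versus Fed, array weights gave 1 member higher (Nampt) in place of 0 and 2 lower (Nmnat3 and Sirt3) in place of 1. There, 0 were lower with an adjusted p under 0.01, with a change of at least 1.5-fold and with the methods' test at p under 0.001. With arrays left out, 0 to 1 were higher and 0 to 2 lower. In P3 versus Fed, 1 was higher (Sirt7) in place of 2 after quantile normalization once more, with the replicate block and with an adjusted p under 0.01, 0 with a change of at least 1.5-fold and with the methods' test at p under 0.001, and 1 to 2 with arrays left out. The count lower was 2 in place of 4 (Nmnat3 and Sirt5) with both versions of the methods' test, and 3 to 4 with arrays left out. In P3 versus P2, 1 was higher (Sirt7) in place of 2 after quantile normalization once more, with an intensity trend and robust moderation, with only the groups compared, with the replicate block, with an adjusted p under 0.01 and with a change of at least 1.5-fold, 0 with the methods' test at p under 0.001, and 1 to 2 with arrays left out. There, 1 was lower (Sirt5) in place of 2 with an adjusted p under 0.01 and with the methods' test at p under 0.001, 0 with a change of at least 1.5-fold, and 1 to 2 with arrays left out. The stricter thresholds lower counts by construction, and the other causes were not tested.

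The labels do not say whether rats with the same replicate number share more than the number. Correlations of their deviations from the group means ran between -0.243 and 0.123. Rats of different numbers were not compared in this way, so these values do not decide it. With the replicate block Sirt6 was no longer called in P3 versus Fed (limma adjusted p = 0.0652) or in P3 versus P2 (limma adjusted p = 0.102), and no other call of the 9 members was lost. Signal over background was not used here, so dim probe sets such as that of Tdo2 have only their log2 level to go by.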

Other observations

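Genes around the sirtuins also showed patterns in which P2 and P3 lay on opposite sides or P2 alone stood out. They were chosen after their values were seen and are given as values only. Mlycd, the malonyl-CoA decarboxylase that relieves the block on fatty acid entry into mitochondria, had a log2 fold change of 0.94 ± 0.16 in P2 versus Fed (limma adjusted p = 0.00719), of -0.22 ± 0.16 in P3 versus Fed, which was not called, and of -1.16 ± 0.16 in P3 versus P2 (limma adjusted p = 0.00109). Nr1h3, the liver X receptor alpha, had values of 0.69 ± 0.10, 0.23 ± 0.10 and -0.46 ± 0.10 in the same comparisons, with calls in the first and the last. Slc25a51, which carries NAD+ into mitochondria, was higher in P3 than in P2 by 0.62 ± 0.14 (limma adjusted p = 0.0175), with log2 intensities of 10.49, 10.70 and 10.47 in P3 and 9.58, 10.02 and 10.20 in P2. Its 3 Fed values, all 10.33, lay between the groups, and their SD of 0.0001 is far below that of the other groups (0.13 in P3 and 0.32 in P2). Slc25a51 has 3 probe sets with its symbol alone, and only that of highest mean is shown.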
